A study of Rattus norvegicus with 18 samples.

Results

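The RPE/choroid of untreated 24-month-old rats was compared with that of young rats in 6 of the 18 RNA-seq libraries of the series, 3 from aged and 3 from young animals. All 32552 genes of the RPE/choroid count table were considered, and 16047 passed the expression filter and were tested. The animals were wild-type female Fischer 344 rats, an inbred albino strain whose retina degenerates with age. Young rats were 4 months old by the sample labels, aged rats were 24 months old, and neither group had received 8-aminoguanine (8-AG), an inhibitor of purine nucleoside phosphorylase that another group of aged rats drank at 5 mg/kg daily for 8 weeks. The same 3 groups were sequenced for retina. The RPE/choroid was collected by rinsing the opened eye cup with RNA lysis reagent once the front of the eye and the retina had been taken away, so each library is a mixture of the tissues left in the cup. Young libraries 1 and 2 carry one label number with the letters L and R, as do aged libraries 1 and 2, and the labels do not state whether each such pair is both eyes of one animal. P-values therefore measure only the spread between these libraries.

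The retinal pigment epithelium (RPE) is the monolayer behind the photoreceptors, which holds melanin in pigmented animals but not in albino ones. It recycles the visual pigment chromophore, takes up shed outer segment tips and, through its tight junctions, forms the outer blood-retina barrier. The choroid beneath it is a bed of fenestrated capillaries and larger vessels held in a stroma of fibroblasts, melanocytes, nerves, mast cells and macrophages, and complement genes expressed in this tissue are known for their link to age-related macular degeneration. In bulk tissue, fewer cells of a type and less RNA per cell cannot be told apart, and this holds for all levels given here.

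The 6 libraries held 28573828 to 48203050 counts. Levels are given as CPM, the count divided by the TMM-normalized library total and multiplied by 1000000, in the order library 1, 2 and 3 of each group. Markers of the tissue were present in all 6 libraries. Best1, the chloride channel of the RPE basal membrane, was at 571, 748 and 875 CPM in young and 585, 1013 and 639.9 CPM in aged libraries. Tyr, the tyrosinase gene of the melanin pathway, whose transcript was present in these albino eyes, was at 328, 343 and 460.3 CPM in young and 430.0, 539 and 200.2 CPM in aged libraries. Rpe65, the isomerase of the visual cycle, was at 326, 249 and 58.4 CPM in young and 125, 27.3 and 333 CPM in aged libraries, and it was low in young library 3 and aged library 2.

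Retinal transcripts were also present, in amounts that split the libraries across the groups. The 19 rod photoreceptor genes tested summed to 20340, 22430 and 2283 CPM in young and 13270, 715 and 18530 CPM in aged libraries. Young library 3 and aged library 2 were poor in rod transcripts and the other 4 were rich in them. The visual cycle genes were low in the same pair of libraries, summing to 4214, 3271 and 1085 CPM in young and 2009, 888 and 4364 CPM in aged libraries. Aged library 3 stood apart in another way. Its Müller glia and astrocyte genes summed to 12160 CPM against 4315 to 6419 CPM in the other 5 libraries, its inner retinal neuron genes to 2384 CPM against at most 1452 CPM, and its cone genes to 494 CPM against at most 243.3 CPM. Its melanocyte, fibroblast and endothelial genes were the lowest of the 6. Lens genes summed to 847 CPM in young library 2 and to 22.8 to 59.8 CPM elsewhere. Striated muscle genes summed to 6079 CPM in young library 2 and 4705 CPM in aged library 1, with at most 115 CPM in the other 4. The part of these differences in each result below was not tested, and values without the libraries concerned are given where a result rests on them.

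**Figure D1:**
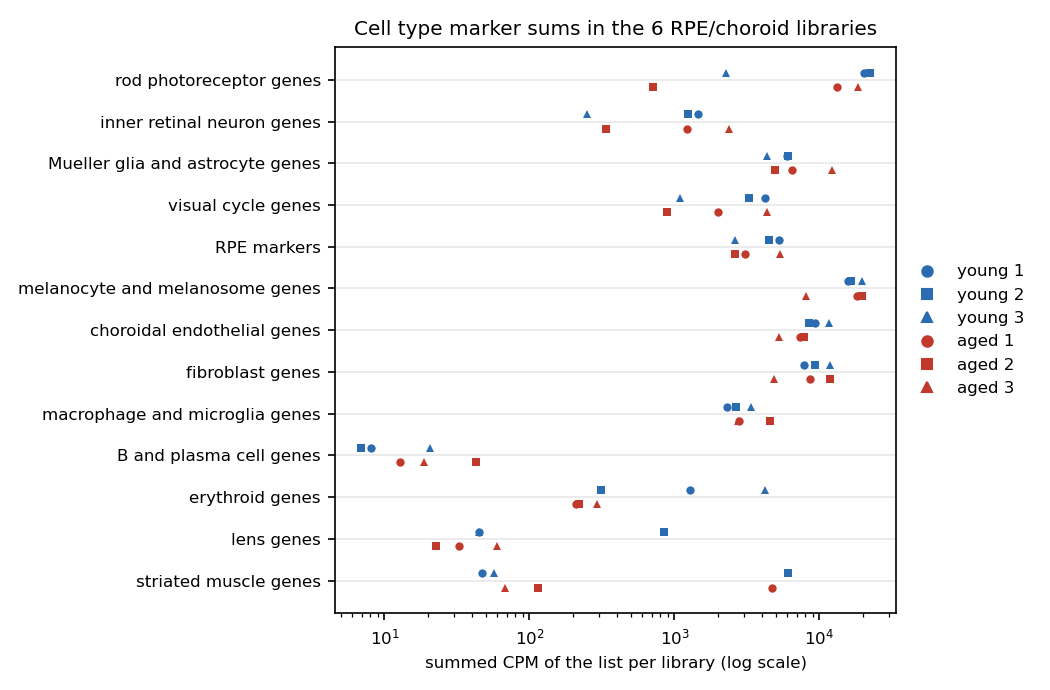
Summed CPM of 13 cell type gene lists in each of the 6 RPE/choroid libraries, on a log axis, with young libraries in blue and aged libraries in red and the marker shape giving the library number. Rod genes run from 715 CPM in aged library 2 to 22430 CPM in young library 2, whereas endothelial and erythroid sums lie lower in the 3 aged libraries than in the 3 young ones.

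A gene was called differentially expressed (DEG) when its fold change exceeded 1.5 with P below 0.05, before adjustment, in edgeR's quasi-likelihood test, and log2 fold changes are given with their standard error (SE). In aged RPE/choroid 115 genes were higher (0.717% of those tested) and 102 were lower (0.636%). No gene had a Benjamini-Hochberg adjusted p under 0.05 in this edgeR fit, where 341 genes had an unadjusted P under 0.05 (2.13%). The Wald test of DESeq2 gave 34 genes at an adjusted p under 0.05. In the edgeR fit the smallest adjusted p was 0.106, that of Nhsl1, and the next was 0.918. DEGs are therefore a ranking by size and spread and not a list with a controlled error rate. The median log2 fold change (aged over young) of all genes tested was 0.018. Every aged library was above every young library for 483 genes (3.01%) and below for 667 (4.16%), so that the groups did not overlap for 7.17% of genes. This share and the 2.13% at an unadjusted P under 0.05 lie below what random group labels would give, 0.1 and 0.05 of genes. The groups did not overlap for 101 of the 115 higher and 88 of the 102 lower DEGs, so separation adds little to a call. The common dispersion, the squared relative variation between libraries beyond counting noise, was 0.195 in RPE/choroid and 0.0147 in retina. With the libraries that share a label number summed, leaving 2 against 2, edgeR gave 115 higher and 84 lower DEGs, of which 52 and 56 were among those of the 6 libraries. In that fit 21 of the 64 DEGs named by rule, listed or singled out lost the call, Mmp3, Lad1, Crygs, Plvap and Cdh5 among them. With all 3 groups of RPE/choroid libraries in one fit, 32 of the 64 lost it. In a fit to the 4 rod-rich libraries alone, 232 genes were higher and 177 lower, of which 63 and 43 were among the DEGs of all 6 libraries.

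**Figure D2:**
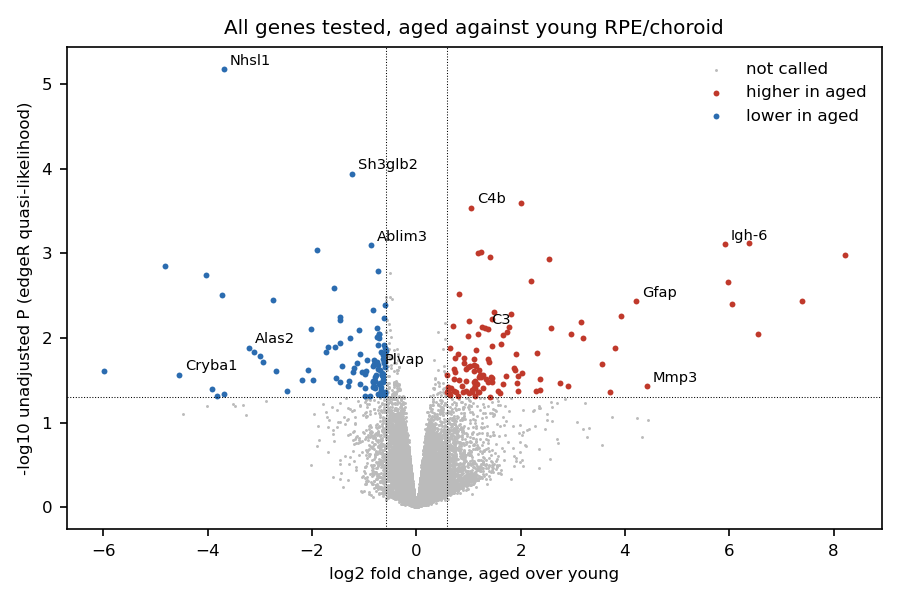
Log2 fold change (aged over young) against -log10 of the unadjusted P for the 16047 genes tested, with 115 higher DEGs in red, 102 lower DEGs in blue and dotted lines at the limits of the rule. Nhsl1 stands highest, and Igh-6 and Gfap are among the largest increases.

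Nhsl1, a relative of the actin regulator NHS, separated the groups most clearly. It was at 16.9, 23.1 and 24.7 CPM in young and 1.56, 2.01 and 1.41 CPM in aged libraries. The lowest young library lay above the highest aged library by several times, and the log2 fold change was -3.69 (SE 0.26, adjusted p = 0.106 with edgeR). Leaving out each library in turn gave -3.86 to -3.59, and Nhsl1 was a DEG each time. Sh3glb2, which encodes the membrane-curving protein endophilin B2, was at 50.1, 49.6 and 55.6 CPM in young and 20.6, 20.3 and 25.4 CPM in aged libraries, a log2 fold change of -1.23 (SE 0.14). Ablim3, an actin-binding LIM protein, was at 37.3, 32.6 and 37.7 CPM in young and 21.2, 17.3 and 20.3 CPM in aged libraries, at -0.87 (SE 0.14). Sh3glb2 and Ablim3 had narrow ranges within each group that did not overlap, and both lie outside the naming rule because they were singled out after their values were seen. Sh3glb2 was also lower in aged retina, at -0.82 (adjusted p = 3.17e-04 with edgeR).

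Ncoa3, a coactivator of nuclear receptors, was at 103, 54.6 and 85.4 CPM in young and 36.2, 33.6 and 17.95 CPM in aged libraries, at -1.47 (SE 0.35). Krt2, a type II keratin, was at 8.19, 11.9 and 8.14 and 3.32, 4.0 and 2.19 CPM, at -1.57 (SE 0.32). Galnt5, an enzyme that starts O-linked glycans, was at 2.1, 4.4 and 4.31 and 0.797, 0.601 and 0.202 CPM, at -2.75 (SE 0.60). Nr5a2, an orphan nuclear receptor also known as LRH-1, was at 3.69, 3.22 and 7.37 and 1.43, 0.901 and 2.09 CPM, at -1.69 (SE 0.48). The rule that named these 4 genes required every aged library to be below every young one, which held for 4.16% of all genes tested. They were DEGs whichever single library was left out, and Nr5a2 kept the call in 9 of 10 other settings.

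**Figure D3:**
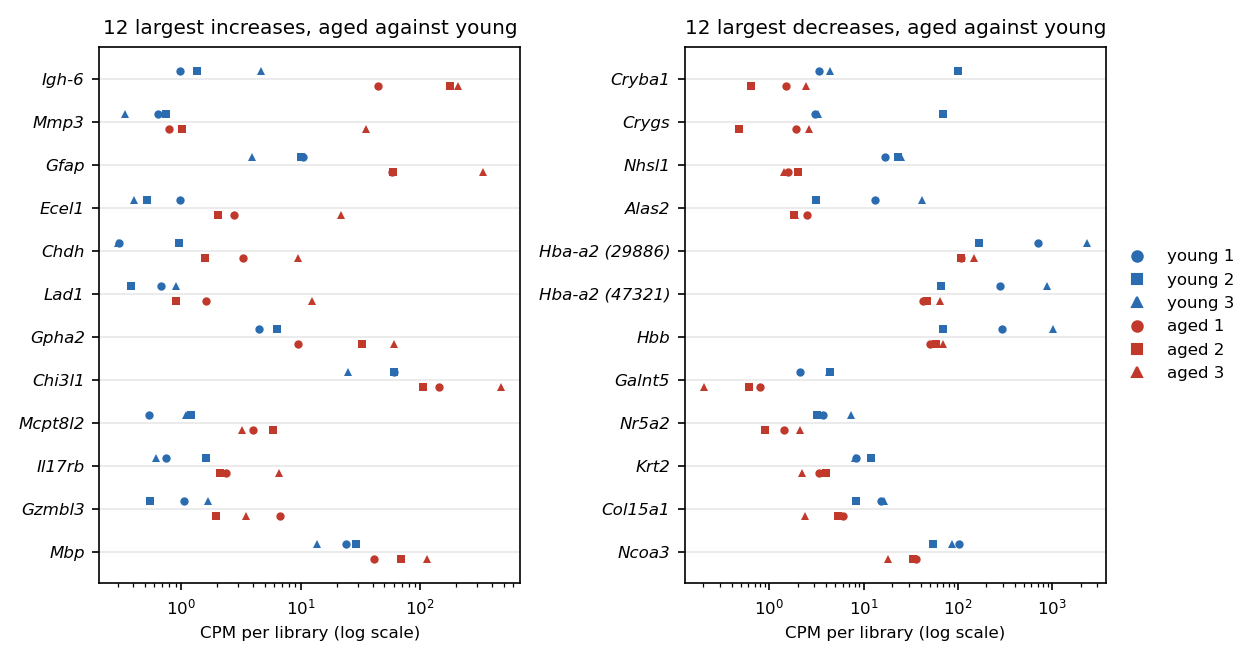
CPM in each library, on a log axis, of the 12 largest increases (left) and the 12 largest decreases (right) among DEGs with non-overlapping groups and a mean log2 CPM of at least 1; young libraries are blue, aged libraries red, and the marker shape gives the library number. Mmp3, Ecel1 and Lad1 are far higher in aged library 3 than in the other aged libraries, and Cryba1 and Crygs are far higher in young library 2 than in the other young libraries.

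Igh-6, an immunoglobulin heavy chain gene, had the largest increase among DEGs with a mean log2 CPM of at least 1, groups without overlap and a symbol other than a clone, LOC or RGD name. Some genes of lower level had larger fitted values. It was at 0.982, 1.35 and 4.69 CPM in young and 44.6, 178 and 207 CPM in aged libraries, a log2 fold change of 5.91 (SE 0.94). Each aged library was several-fold above each young library, and leaving out single libraries gave 5.55 to 6.91. Reads of immunoglobulin segments can be shared between near-identical copies, so the value for this one gene is uncertain. All 9 B and plasma cell genes tested, of 11 listed, had higher means in aged libraries, as had 53.0% of all genes tested, with a median log2 fold change of 1.04. That median ranged over 0.31 to 1.94 as single libraries were left out. The summed level overlapped, at 8.02, 6.88 and 20.5 CPM in young and 12.9, 42.6 and 18.7 CPM in aged libraries. Of the 9 genes 1 was a DEG, against 0.717% higher DEGs among all genes tested, and 0 to 5 were as single libraries were left out. The DEG was Pou2af1, the B cell coactivator OBF1, at 0.203, 0.303 and 0.857 CPM in young and 1.36, 2.85 and 1.15 CPM in aged libraries, 1.95 (SE 0.68). Jchain, the joining chain of secreted IgA and IgM, overlapped between groups, at 2.27, 1.07 and 9.55 and 4.18, 20.3 and 4.92 CPM. Levels of Mzb1 and Jchain were highest in aged library 2 and, among young libraries, in young library 3, both of them poor in rod transcripts.

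Mast cell and cytotoxic granule proteases were among the increases at low levels. Mcpt8l2, a mast cell protease, was at 0.542, 1.21 and 1.09 CPM in young and 4.02, 5.83 and 3.23 CPM in aged libraries, 2.19 (SE 0.43). Mcpt1, a chymase, was at 0.102, 0.0275 and 0.278 and 0.73, 1.59 and 1.04 CPM, 2.97 (SE 0.79). Gzmbl3, a granzyme B-like protease, was at 1.05, 0.55 and 1.69 and 6.7, 1.95 and 3.47 CPM, 1.87 (SE 0.62). None of these 3 genes overlapped between groups, which the rule that named Mcpt8l2 and Gzmbl3 required. Every aged library was above every young one for 2 of 11 listed mast cell genes, against 3.01% of all genes tested. For 1 of the 11 every aged library was below. Of 11 listed mast cell genes tested, which do not include Mcpt8l2, Mcpt1 was the DEG, against 0.717% higher DEGs among all genes tested, 9 had higher means in aged libraries, and the median was 0.90, or 0.065 in the 4 rod-rich libraries. The summed level of the list overlapped, at 215, 222 and 252 CPM in young and 218, 274 and 102 CPM in aged libraries, and was lowest in aged library 3. Cpa3, the mast cell carboxypeptidase, overlapped between groups, at 0.812, 4.32 and 1.41 and 4.05, 7.69 and 1.21 CPM. Such proteases form families of similar sequence whose reads could have been split in counting.

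Gfap, the intermediate filament of astrocytes and reactive Müller glia, was at 10.5, 10.1 and 3.92 CPM in young and 58.3, 59.4 and 333 CPM in aged libraries, a log2 fold change of 4.20 (SE 0.91). All aged libraries were above all young libraries, as the rule for the largest increases required. Gfap was a DEG without aged library 3 as well, at 2.85. Gfap was also higher within the rod-poor pair, where young library 3 and aged library 2 are compared, and the log2 ratio there was 3.89. Chi3l1, a chitinase-like glycoprotein of inflamed tissue, was at 60.7, 59.9 and 25.1 and 143, 105 and 476 CPM, 2.31 (SE 0.69), and at 1.35 without aged library 3. Gfap was the DEG among 12 Müller glia and astrocyte genes tested, against 0.717% higher DEGs among all genes tested, and the list's median of 0.39 fell to -0.01 without aged library 3. That library also had the highest sums of inner retinal neuron and cone genes, whose part in these values was not tested.

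Transcripts of myelin included a gene that was higher in aged libraries. Mbp, myelin basic protein, was at 24.1, 29.2 and 13.7 CPM in young and 41.4, 68.4 and 114 CPM in aged libraries, 1.74 (SE 0.45), without overlap, which the rule for the largest increases required. It was a DEG whichever library was left out. Pmp2, the fatty acid-binding protein of peripheral myelin, is not in the myelin list and is named because of its absence in 1 group, after its values were seen. It had no count in the 3 young libraries and 19, 31 and 50 counts in the aged libraries. Against a floor of 3 counts over the young libraries together it was at least 40.3-fold higher. It passed the expression filter through the aged libraries alone, so it had to differ, and its value is a description. Of 13 listed Schwann cell and myelin genes tested, Mbp was the DEG, against 0.717% higher DEGs among all genes tested, and the median was 0.12, between -0.10 to 0.32 as single libraries were left out.

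Some of the largest increases rested on aged library 3. Mmp3, the matrix metalloproteinase stromelysin-1, was at 0.643, 0.743 and 0.343 CPM in young and 0.797, 1.02 and 35.1 CPM in aged libraries. The log2 fold change was 4.42 (SE 1.65) and fell to 0.66 without aged library 3, when Mmp3 was no DEG. Lad1, a basement membrane-anchoring protein of epithelia, behaved likewise, at 0.677, 0.385 and 0.90 and 1.63, 0.901 and 12.3 CPM, with 2.91 falling to 0.94. Ecel1, a neuronal endopeptidase, was at 0.982, 0.523 and 0.407 and 2.75, 2.04 and 21.8 CPM, and its value fell from 3.80 to 1.92 but stayed within the rule. Chdh, the choline dehydrogenase of mitochondria, was at 0.305, 0.963 and 0.30 and 3.29, 1.59 and 9.5 CPM, with 3.19 in all libraries and 2.21 without aged library 3. Gpha2, a glycoprotein hormone subunit, was at 4.5, 6.3 and 6.32 and 9.56, 32.9 and 59.8 CPM, 2.58 (SE 0.65), with all 3 aged libraries above the young, as its naming rule required, and at 1.89 without aged library 3. Il17rb, a receptor for interleukin-17B and interleukin-25, was at 0.745, 1.62 and 0.621 and 2.36, 2.13 and 6.6 CPM, 1.89 (SE 0.63), and was no DEG without aged library 3, at 1.17.

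Of 28 complement genes tested, 2 were higher DEGs and none a lower one, set against 0.717% higher DEGs among all genes tested, while 16 had higher and 12 lower means and the median was 0.12. C4b, a classical pathway component cleaved to form the C3 convertase, was at 39.8, 39.4 and 44.5 CPM in young and 88.2, 96.1 and 72.2 CPM in aged libraries, a log2 fold change of 1.05 (SE 0.14). C3, on which all complement pathways converge, was at 15.3, 12.99 and 15.8 and 24.3, 29.1 and 55.8 CPM, 1.31 (SE 0.34). For both genes every aged library exceeded every young one, as in 4 of the 28 tested, against 3.01% of all genes tested. Both were DEGs whichever library was left out. A gene listed as LOC103689965 (ENSRNOG00000000443), which resembles C4b and could share reads with it, was at 40.1, 38.6 and 43.1 and 83.6, 151 and 91.02 CPM, 1.42 (SE 0.24). Cfi, the protease that inactivates C3b and C4b, was close to the detection limit, at 0.135, 0.193 and 0 and 0.332, 0.391 and 1.62 CPM, and was no DEG, 2.85 (SE 1.18). Cfb, of the alternative pathway, was at 1.18, 1.27 and 1.65 and 1.99, 2.55 and 1.72 CPM, 0.61 (SE 0.31), and was no DEG either. C1qb and C1s overlapped, at 0.30 and 0.23. The list held 2 higher DEGs in each fit that left out 1 library, and its median ranged over -0.083 to 0.25. The complement sum was 4676, 5287 and 5505 CPM in young and 5561, 7014 and 6817 CPM in aged libraries.

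Chemokine genes held 4 higher DEGs and no lower one among 25 tested, against 0.717% higher DEGs among all genes tested, with a median of 0.27. Their summed level overlapped between groups, at 2237, 2874 and 3861 CPM in young and 2878, 3826 and 1616 CPM in aged libraries, and was lowest in aged library 3. Cxcl1, a neutrophil attractant, was at 1.22, 0.936 and 1.46 CPM in young and 2.36, 2.85 and 3.44 CPM in aged libraries, 1.26 (SE 0.32). Cxcl6, of the same family, was at 0.643, 0.936 and 1.99 and 2.52, 2.82 and 2.86 CPM, 1.19 (SE 0.47). Ccl7, a monocyte attractant, was at 10.2, 18.4 and 11.4 and 21.9, 21.00 and 24.2 CPM, 0.75 (SE 0.25). In these 3 genes every aged library was above every young one, as in 5 of the 25 tested, against 3.01% of all genes tested. Ccl27, a T cell attractant of epithelia, was the fourth, at 2.47, 1.87 and 1.29 and 3.72, 2.55 and 7.38 CPM, 1.28 (SE 0.49). Ccl2, the neighbour and relative of Ccl7, was above the young range in all aged libraries, at 12.8, 21.1 and 20.2 and 23.6, 23.4 and 54.6 CPM, without being a DEG, 0.91 (SE 0.40). Cxcl1 was a DEG whichever library was left out, whereas Cxcl6 lost the call in 5 of 6 such fits and Ccl7 and Ccl27 in 4 each, so that the list held 1 to 5 higher DEGs.

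The promoters of the 3 chemokine DEGs that hold a match to GGGA and TTCC with any 2 bases between them, a form of the NF-kappaB motif, are shown because these genes were higher together. Each runs from 250 bases before to 50 bases after the transcription start in RefSeq (GRCr8), 5′ to 3′ on the gene's strand, with matches on either strand in capitals. In Cxcl1 and Cxcl6 the run in capitals is a match on each strand, overlapping by all but 1 base, and in Ccl7 it is a match on the opposite strand.
Cxcl1 chr14:17479272-17479571 (minus strand): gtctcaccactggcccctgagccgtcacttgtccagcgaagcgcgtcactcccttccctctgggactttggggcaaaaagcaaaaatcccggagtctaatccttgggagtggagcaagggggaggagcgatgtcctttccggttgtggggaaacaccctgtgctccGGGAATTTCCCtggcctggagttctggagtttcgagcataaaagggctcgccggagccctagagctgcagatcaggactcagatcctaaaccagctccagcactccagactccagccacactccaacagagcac
Cxcl6 chr14:17596368-17596667 (minus strand): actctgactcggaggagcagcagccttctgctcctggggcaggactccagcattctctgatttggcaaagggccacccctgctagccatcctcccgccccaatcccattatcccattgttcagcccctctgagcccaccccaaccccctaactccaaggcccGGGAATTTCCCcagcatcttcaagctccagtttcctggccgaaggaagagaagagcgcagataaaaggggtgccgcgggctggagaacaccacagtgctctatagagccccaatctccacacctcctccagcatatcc
Ccl7 chr10:67513845-67514144 (plus strand): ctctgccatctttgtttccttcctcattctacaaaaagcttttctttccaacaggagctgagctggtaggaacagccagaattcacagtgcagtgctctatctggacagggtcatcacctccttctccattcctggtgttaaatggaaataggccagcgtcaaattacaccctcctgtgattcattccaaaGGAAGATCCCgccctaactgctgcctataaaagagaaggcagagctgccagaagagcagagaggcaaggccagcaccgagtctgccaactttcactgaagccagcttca
Such a match was found in 5 of 19 promoters of tested chemokine genes (26.3%), in 7 of 80 promoters of higher DEGs (8.75%), in none of 69 of lower DEGs and in 161 of 11103 promoters of tested genes (1.45%). Of all 27457 promoters of that length 1.29% held one. Of the 5 chemokine genes with a match, Cxcl10 and Cxcl11 were no DEGs. The counts describe letters in these windows and no test was made of them. The promoters of the DEGs C3, C4b, Ubd, Ccl27, Camp and S100a9 held no match in these windows.

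Antimicrobial and neutrophil genes were low, and 10 of 12 tested had higher means in aged libraries. S100a8 and S100a9 encode the subunits of calprotectin. S100a8 was at 2.44, 1.35 and 1.82 CPM in young and 5.34, 2.88 and 4.11 CPM in aged libraries, 1.14 (SE 0.37), and S100a9 was at 9.54, 5.81 and 8.38 and 20.2, 10.3 and 12.9 CPM, 0.87 (SE 0.33). Camp, the cathelicidin peptide, was at 0.643, 0.688 and 0.45 and 1.59, 1.65 and 0.876 CPM, 1.21 (SE 0.40). Among 12 genes of this list tested these 3 were the DEGs, against 0.717% higher DEGs among all genes tested, but 0 to 2 were DEGs as single libraries were left out. Camp lost the call in 5, S100a9 in 4 and S100a8 in 3 of these 6 fits. The median was 0.63, between 0.49 to 0.78 as single libraries were left out. Reg3g, a bactericidal lectin, did not pass the filter, with 2, 1 and 0 counts in young and 4, 50 and 31 counts in aged libraries. Ubd, the ubiquitin-like modifier FAT10 that tumour necrosis factor and interferon-gamma induce, was at 3.99, 6.08 and 6.11 and 18.8, 8.83 and 16.7 CPM, 1.45 (SE 0.35), without overlap.

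**Figure D4:**
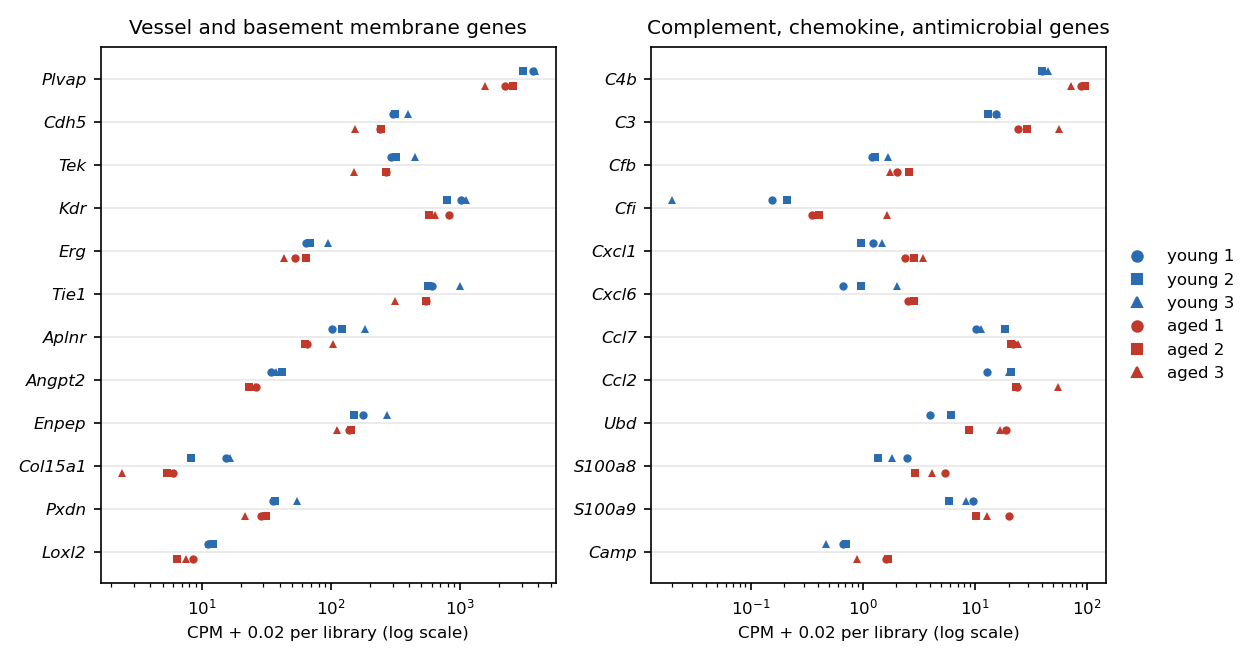
CPM plus 0.02 in each library, on a log axis, of vessel and basement membrane genes (left) and of complement, chemokine and antimicrobial genes (right); young libraries are blue, aged libraries red, and the marker shape gives the library number. On the left most aged points lie to the left of the young points, as for Plvap (2214, 2535 and 1546 against 3631, 3070.2 and 3765 CPM), and on the right most lie to the right, as for C4b. Both panels show picked genes and not whole lists, so these directions reflect the choice. In the full lists 12 of 28 complement and 6 of 25 chemokine genes had lower means, and Sox18 and Vegfb, not drawn, had higher ones.

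Most genes of the choroidal endothelium had lower means in aged libraries. Of 16 tested, of 20 listed, 15 had lower means in aged libraries and 2 were lower DEGs, against 0.636% of all genes tested. The median log2 fold change was -0.43, and in 7 genes every aged library was below every young one, against 4.16% of all genes tested. Plvap, which forms the diaphragms of fenestrated capillaries, was at 3631, 3070.2 and 3765 CPM in young and 2214, 2535 and 1546 CPM in aged libraries, -0.73 (SE 0.24). Cdh5, the cadherin of endothelial junctions, was at 302, 311 and 393 and 239.8, 242 and 153 CPM, -0.67 (SE 0.23). Both were separated between groups and both were lowest in aged library 3. Kdr, the main receptor for vascular endothelial growth factor, was at 1015, 783 and 1097 and 813, 574 and 638 CPM, -0.52 (SE 0.21), and was no DEG. Tek, the angiopoietin receptor, was at 292, 315 and 445 and 266, 265 and 151 CPM, -0.63 (SE 0.29), and was no DEG either. Vwf and Sox18 overlapped, at -0.15 and 0.16. Plvap kept its call in 2 and Cdh5 in 4 of 6 fits that left out 1 library, and the list held 0 to 3 lower DEGs in them. The endothelial sum was 9348, 8435 and 11590 CPM in young and 7326, 7848 and 5276 CPM in aged libraries, and the median of the list was -0.26 without aged library 3 and -0.36 in the 4 rod-rich libraries.

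Of 26 angiogenic signalling genes tested, 2 were lower DEGs and none a higher one, against 0.636% lower DEGs among all genes tested. The median was -0.35 and 23 had lower means in aged libraries, whereas 53.0% of all genes tested had higher ones. Angpt2, an angiopoietin that destabilises vessels, was at 34.05, 41.5 and 37.6 CPM in young and 26.2, 23.3 and 25.7 CPM in aged libraries, -0.59 (SE 0.13). Aplnr, the apelin receptor, was at 101, 122 and 184 and 65.3, 62.3 and 103 CPM, -0.82 (SE 0.30), and aged library 3 overlapped with young library 1. Enpep, the aminopeptidase A of vessel walls, is not in the list and was at 177, 151 and 273 and 138, 141 and 111 CPM, -0.62 (SE 0.25), a call lost in 5 of 6 fits that left out 1 library. Vegfb, a ligand of the growth factor receptor Flt1, went against the list in value, at 19.5, 12.6 and 13.8 and 27.2, 45.9 and 12.1 CPM, 0.89 (SE 0.48).

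Of 25 elastic and basement membrane genes tested 2 were lower DEGs, Loxl2 and Pxdn, and none a higher one, against 0.636% lower DEGs among all genes tested. In this list 8 genes had higher means, and the median of -0.30 was -0.036 without aged library 3. Col15a1, a collagen of vascular basement membranes, was at 15.4, 8.2 and 16.5 CPM in young and 5.97, 5.35 and 2.39 CPM in aged libraries, -1.55 (SE 0.45). Loxl2, which crosslinks collagen, was at 11.2, 12.2 and 11.4 and 8.56, 6.4 and 7.55 CPM, -0.63 (SE 0.19), and Pxdn, the peroxidase that crosslinks collagen IV, was at 35.8, 36.8 and 54.8 and 28.7, 31.1 and 21.6 CPM, -0.65 (SE 0.23). None of the 3 overlapped, as was so for 88 of the 102 lower DEGs, and every aged library was below for 4.16% of all genes tested. Col4a3 and Col4a5, chains of collagen IV, were at -0.98 and -0.67. Among 35 collagen genes 3 were lower DEGs and none a higher one, against 0.636% lower DEGs among all genes tested, with a median of -0.14, which was -0.018 without aged library 3, and 1 to 7 were lower DEGs as single libraries were left out. Enpp2, the secreted autotaxin of the RPE, was the DEG among 18 RPE markers, against 0.636% lower DEGs among all genes tested, at 128, 128 and 95.5 and 81.6, 87.2 and 52.9 CPM, -0.66 (SE 0.23). The median of the RPE markers was -0.27, or -1.05 without aged library 3.

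Of 21 metalloproteinase and inhibitor genes tested, 2 were higher DEGs and 1 a lower one, against 0.717% and 0.636% of all genes tested, with a median of 0.065. Besides Mmp3, Adamts5, an aggrecanase, was higher, at 18.3, 18.0 and 26.3 and 25.96, 36.7 and 40.6 CPM, 0.72 (SE 0.24), with overlap. Adam17, the sheddase of tumour necrosis factor, was lower, at 93.9, 97.6 and 134 and 68.2, 80.4 and 67.9 CPM, -0.59 (SE 0.17). Adamts5 kept the call in 2 and Adam17 in 3 of 6 fits that left out 1 library. Itgb3, the beta chain of the vitronectin receptor, was at -0.82 (SE 0.31) and Flrt2, a guidance and adhesion protein, at -0.71 (SE 0.19). Flrt2 was a DEG in each fit that left out 1 library and Itgb3 in 1 of 6. Gsta1, a glutathione transferase, was at 349.9, 361 and 330.2 and 473, 538 and 1046 CPM, 0.98 (SE 0.32), and at 0.54 without aged library 3, when it was no DEG. Among 26 antioxidant genes Gsta1 was the higher DEG, against 0.717% higher DEGs among all genes tested, and Pxdn was a lower one, against 0.636%. Of 23 cell cycle and senescence genes 1 was a higher DEG, Cdkn2b, and 1 a lower one, Ccnd2, against 0.717% and 0.636% of all genes tested, and 13 had higher means, with a median of 0.048. The study also names cell cycle genes that it picked as lower from these libraries, so their direction is no evidence of its own. They include Ccnd2 (cyclin D2) at -0.63 (SE 0.22), Mecom at -0.74 (SE 0.24), Skil at -0.63 (SE 0.22) and Plcb1 at -0.64 (SE 0.20). Dusp1, a stress-induced phosphatase, was no DEG, at -0.89 (SE 0.41), and its value rested on 552 CPM in young library 3.

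Of 30 Wnt and BMP signalling genes tested, 2 were higher DEGs and none a lower one, against 0.717% higher DEGs among all genes tested, while 17 had lower means in aged libraries and the median was -0.10. Both DEGs were at low levels. Wnt10a was at 0.271, 0.193 and 0.0428 CPM in young and 1.29, 1.17 and 5.19 CPM in aged libraries, 3.93 (SE 0.94), and at 2.88 without aged library 3. Wnt2 was at 1.46, 0.991 and 1.33 and 2.59, 2.16 and 3.64 CPM, 1.15 (SE 0.34). The 3 genes that follow are not in that list. Ovol2, a repressor that keeps cells epithelial, was at 0.575, 0.908 and 0.90 and 3.85, 2.97 and 1.65 CPM, 1.82 (SE 0.43). Cdkn2b, the cell cycle inhibitor p15, was at 0.474, 0.248 and 0.236 and 0.797, 0.781 and 2.02 CPM, 1.91 (SE 0.58), and at 1.31 without aged library 3, when it was no DEG. Postn, the matrix protein periostin, overlapped, at 21.2, 17.1 and 9.02 and 26.7, 18.9 and 71.2 CPM, and was no DEG, 1.30 (SE 0.58), or 0.53 without aged library 3. The study names 41 genes tested here for this comparison, all from these libraries, so their directions are not independent evidence: 33 were DEGs, and 12 of those kept the call whichever library was left out.

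Haemoglobin transcripts were lower in aged libraries but varied most among the young ones. Alas2, the first enzyme of haem synthesis in red cell precursors, was at 13.2, 3.08 and 41.4 CPM in young and 2.49, 1.83 and 1.89 CPM in aged libraries, -3.21 (SE 0.92). Hbb, a beta-globin, was at 290.2, 69.5 and 1005 and 50.8, 58.1 and 68.5 CPM, -2.94 (SE 0.92). One of 2 genes named Hba-a2 (ENSRNOG00000029886), an alpha-globin, was at 699.9, 168 and 2308 and 108, 108 and 149 CPM, -3.12 (SE 0.92), and reads of the alpha-globin copies may be split between them. The groups did not overlap, as the rule for the largest decreases required, yet young library 2 lay close to the aged libraries. Without young library 3 the log2 fold changes were -1.99 for Alas2, -1.62 for Hbb and -1.85 for that Hba-a2 gene, and all 3 remained DEGs. Hbb lost the call when any single aged library was left out, and that Hba-a2 gene lost it without aged library 1. The erythroid list had a median of -1.86, or -0.63 in the 4 rod-rich libraries.

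Lens genes had the most negative median of the lists, -3.40 over 12 tested, and it rested on young library 2. Cryba1, a beta-crystallin, was at 3.38, 100.1 and 4.37 CPM in young and 1.49, 0.631 and 2.46 CPM in aged libraries, and Crygs, a gamma-crystallin, was at 3.05, 68.8 and 3.28 and 1.89, 0.481 and 2.63 CPM. The log2 fold changes of -4.56 for Cryba1 and -3.91 for Crygs became -1.35 and -0.93 without that library, when neither gene was a DEG. Without young library 2 the median of the lens genes was -0.22.

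Functions of the RPE itself gave few calls. None of 14 visual cycle genes was a DEG, nor were any of 20 outer segment phagocytosis genes, 17 transport and secretion genes or 20 tight junction genes, against 1.35% DEGs of either direction among all genes tested with edgeR. Their medians were -0.27, -0.088, -0.071 and -0.018. As single libraries were left out, the visual cycle median ranged over -1.01 to 0.14, the lowest without aged library 3, and it was 0.18 with libraries of 1 label number summed. Rpe65 was at -0.38 (SE 0.97), an error that would hide a change of several-fold. Tjp1, the junction scaffold ZO-1, was at 90.1, 83.04 and 90.6 and 86.9, 39.2 and 64.00 CPM, -0.47 (SE 0.28), and Cldn19, the main claudin of the RPE, was at 0.474, 0.881 and 0.0857 and 0.797, 1.38 and 1.52 CPM, 1.36 (SE 0.79). Efemp1, a matrix protein of drusen, was at 104, 118 and 97.4 and 131, 135 and 112 CPM, 0.25 (SE 0.13). Without the fold limit, 1 gene of these 4 lists, a transport and secretion gene, had an unadjusted P under 0.05 in edgeR, and the rule gave 0 genes with DESeq2. A p that misses the threshold does not show that these genes were unchanged.

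Genes of translation and respiration held 0 DEGs in edgeR, where 1 gene, a mitochondrial one, had an unadjusted P under 0.05, and 1 in DESeq2, against 1.35% DEGs and 2.13% at that P among all genes tested with edgeR. Of 86 cytosolic ribosomal protein genes 83 had higher and 3 lower means in aged libraries, with a median of 0.20, as had 80 of 84 nuclear genes of oxidative phosphorylation, with a median of 0.10. All 13 mitochondrially encoded genes were higher in mean, with a median of 0.36, which ranged over 0.20 to 0.62 as single libraries were left out. Of all genes tested, 53.0% had a higher mean in aged libraries.

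Many calls were lost when the fit had 1 library fewer. A loss alone does not show that a call rested on the library left out, since some came with a log2 fold change as large as before. Mmp3 was at 4.64 without young library 2 and 4.42 in all 6, and Crygs was at -4.02 without aged library 1 and -3.91 in all 6. Of the 64 DEGs that are named by rule, belong to a list or were singled out, 26 kept the call whichever library was left out. Without aged library 3, 26 lost it, namely Adam17, Adamts5, Ccl27, Ccl7, Cdh5, Cdkn2b, Col4a3, Col4a5, Cryba1, Cryba4, Crygs, Cxcl6, Enpep, Enpp2, Gsta1, Hbb, Il17rb, Itgb3, Lad1, Mecom, Mip, Mmp3, Plvap, Pxdn, S100a9 and Skil. Without aged library 2, 20 did, namely Adamts5, Angpt2, Aplnr, Camp, Ccnd2, Col4a3, Col4a5, Cryba1, Cryba4, Crygs, Cxcl6, Enpep, Hba-a2, Hbb, Itgb3, Loxl2, Mecom, Mip, Plcb1 and Pou2af1, and without aged library 1, 20 did, namely Adam17, Aplnr, Camp, Ccl27, Ccl7, Ccnd2, Cryba1, Cryba4, Crygs, Cxcl6, Enpep, Gzmbl3, Hba-a2, Hbb, Mip, Plvap, Pxdn, S100a8 and S100a9. Without young library 1, 18 lost it, namely Adamts5, Camp, Ccl7, Col4a3, Col4a5, Cxcl6, Enpep, Enpp2, Gsta1, Gzmbl3, Il17rb, Itgb3, Lad1, Mmp3, Plcb1, Plvap, Pou2af1 and Skil. Without young library 2, 22 did, namely Adamts5, Angpt2, Aplnr, Camp, Ccl27, Ccnd2, Cdkn2b, Cryba1, Cryba4, Crygs, Cxcl6, Enpp2, Gsta1, Gzmbl3, Itgb3, Lad1, Loxl2, Mmp3, Pou2af1, S100a8, S100a9 and Wnt2, and without young library 3, 22 did, namely Adam17, Aplnr, Camp, Ccl27, Ccl7, Ccnd2, Cdh5, Cdkn2b, Col4a3, Col4a5, Enpep, Gsta1, Il17rb, Itgb3, Lad1, Mecom, Mmp3, Plvap, Pxdn, S100a8, S100a9 and Skil. Of the 2 genes with the symbol Hba-a2, both lost it without aged library 1 and 1 without aged library 2. All 64 kept their direction in each fit that tested them, which was 4 of the 6 fits for Mip. This was largely fixed in advance, since most of these genes had groups without overlap. DEGs such as Nhsl1, Igh-6, Gfap, Mbp, C3, C4b, Cxcl1 and Ubd appear in none of these lists.

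The change with age was compared between RPE/choroid and retina by an interaction term fitted to 12 libraries, which asks whether the log2 fold change differs between the tissues. Retina and RPE/choroid were counted separately, so levels are not compared between them. Of 16792 genes, 27 had an adjusted p under 0.05 (0.161%, edgeR), and for 26 of these the change in RPE/choroid was more negative than in retina, while 1386 genes (8.25%) had an unadjusted P under 0.05. This count depended on the libraries, from 0 without young retina library 1 or 3 to 49 without aged RPE/choroid library 2, as each of the 12 was left out. The DESeq2 test gave 314 genes. One spread was fitted to both tissues, although RPE/choroid libraries varied far more than retina libraries.

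Of 29 interferon response genes 6 had an adjusted p under 0.05 in this comparison by edgeR, namely Mx1, Oas1a, Rsad2, Gbp2, Ifi47 and Oasl2, against 0.161% of all genes. The list was written with earlier retina results of these data known, so this count is no independent support. Rsad2 held that threshold in 13 of 16 other settings and the others in 2 to 6. Mx1, an antiviral GTPase, was at 13.5, 17.4 and 29.3 CPM in young and 24.4, 28.6 and 20.4 CPM in aged RPE/choroid, 0.28 on the log2 scale, and at 4.63 in retina, a difference of -4.37 (adjusted p = 0.0361) by edgeR. Rsad2, the antiviral enzyme viperin, was at 10.7, 10.4 and 12.3 and 12.3, 9.04 and 13.8 CPM in RPE/choroid, 0.07, and at 3.72 in retina, a difference of -3.67 (adjusted p = 0.00856) by edgeR. Both overlapped between the age groups in RPE/choroid. Among 29 interferon response genes 0 were DEGs in RPE/choroid by edgeR, 0 had an unadjusted P under 0.05 and 0 were DEGs by DESeq2. Among all genes tested 1.35% were DEGs and 2.13% had an unadjusted P under 0.05, so counts of 0 are near the background. The median of the interferon list was 0.05 in RPE/choroid and 1.86 in retina. MHC class II genes had medians of -0.024 and 2.84, with 0 DEGs and 0 genes at an unadjusted P under 0.05 among 11 in RPE/choroid by edgeR, and 0 DEGs by DESeq2. Macrophage and microglia genes had medians of 0.14 and 1.63, and Aif1, the marker IBA1, was at 129, 149 and 232 CPM in young and 169, 262 and 197 CPM in aged RPE/choroid. The differences between these list medians were not tested.

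A complement protease and a vessel gene differed as well. C1s, the serine protease of the C1 complex, was at 0.23 in RPE/choroid and 2.84 in retina, a difference of -2.62 (adjusted p = 0.0361) by edgeR. Plvap and Ccnd2 went in opposite directions. Plvap was at -0.73 in RPE/choroid and 1.64 in retina, a difference of -2.38 (adjusted p = 0.0365) by edgeR, and Ccnd2 was at -0.63 and 1.92, a difference of -2.57 (adjusted p = 0.0119) by edgeR. Of the 27 genes, 13 that are named by rule or belong to a list are reported, and Nhsl1 was the one of these whose retina value lay below 0, with -3.69 in RPE/choroid, -0.39 in retina and a difference of -3.31 (adjusted p = 0.0466) by edgeR. C4b was at 2.88 and C3 at 2.48 in retina, and edgeR gave differences of -1.84 (adjusted p = 0.259) and -1.18 (adjusted p = 0.531) from RPE/choroid.

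**Figure D5:**
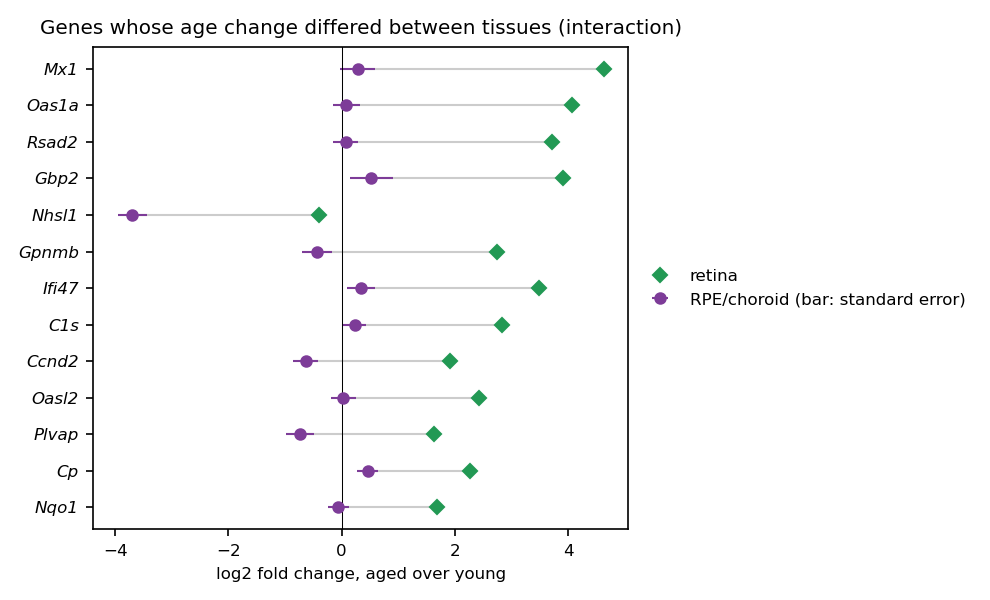
Log2 fold change (aged over young) in RPE/choroid, with its standard error, and in retina for the 13 reported genes with an interaction adjusted p under 0.05. In 12 of them the retina value lies between 1.64 and 4.63 and the RPE/choroid value between -0.73 and 0.53, while Nhsl1 lies at -3.69 in RPE/choroid and -0.39 in retina.

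The 3 libraries of 8-AG-treated aged RPE/choroid place these levels beside other 24-month-old rats, and were normalized together with the other 6 libraries. The first of them differed in makeup, with 67510 CPM of striated muscle genes, 62600 CPM of rod genes and 847 CPM of endothelial genes. Nhsl1 was at 0.626, 1.25 and 3.86 CPM in the treated libraries, all below the 3 young libraries, and Sh3glb2 was at 21.5, 20.04 and 22.6 CPM, within or beside the untreated aged range. Igh-6 was at 1.32, 279.7 and 94.2 CPM, low in the first library alone. C4b was at 48.5, 74.9 and 149 CPM, and Hbb was at 161, 43.5 and 704 CPM, as variable as in the young libraries. Ablim3 was at 30.9, 33.03 and 26.98 CPM, above the untreated aged range. No test was made of these libraries.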

How the data were processed

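Bulk mRNA was sequenced from 9 RPE/choroid and 9 retina libraries. For RPE/choroid the authors deposited whole-number counts without normalization. For retina they deposited expected counts estimated with RSEM, of which 11.5% were not whole and which were rounded here, and only the 3 aged and 3 young retina libraries were used. The submitters' processing notes name Bowtie2 2.1.0, RSEM 1.2.15, edgeR and the build Rnor_6.0 for the series, and the aligner and counter of the RPE/choroid table are not given in the sources used here. RPE/choroid libraries used poly-A selection with a step that enriches whole transcripts because little RNA was obtained, whereas retina libraries used poly-A capture alone, and in both transcripts without a poly-A tail are under-represented. Gene symbols came from the authors' comparison tables, whose fold changes and p-values were not used, and 54 of 16047 genes tested had no symbol.

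The 3 aged and 3 young libraries were fitted with edgeR 4.0.16 in R 4.3.3 (filterByExpr, TMM, estimateDisp, glmQLFit with robust=TRUE, glmQLFTest), with Benjamini-Hochberg adjustment over all genes tested. The standard error is the absolute log2 fold change divided by the square root of F. The retina was fitted alike, and the difference between tissues is the tissue by age interaction over 12 libraries. The fits were tested on simulated data. Genes were named by 4 rules. These took the 12 DEGs that increased most and the 12 that decreased most, given groups without overlap, a mean log2 CPM not under 1 and a symbol other than a clone, LOC or RGD name, then genes with an adjusted p under 0.05, genes named in the study, and up to 4 members of smallest P per list. Others are said to be singled out where they appear. Members and lists were chosen with earlier results of these data known. They were 20 lists of cell types, 27 of pathways and 12 groups of genes that the study names. The study used 1 of these groups as RPE identity markers and picked the others from these libraries. List names with no match were left out, so a list is described by its members tested. Some withheld genes are not reported here by name, and list counts and medians include them. Alternatives were RLE size factors, DESeq2 1.42.0, other filters, all 3 groups, a replicate block, robust=FALSE, summed libraries, a rod gene score as covariate, each library left out and, added after seeing the data, the 4 rod-rich libraries alone. At these depths 3 counts correspond to 0.0643 to 0.102 CPM.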

Additional observations from a re-analysis of the deposited data

Results flagged for a closer look

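The change with age differed between RPE/choroid and retina, by the interaction term of edgeR over 12 libraries at an adjusted p under 0.05, for 13 reported genes that are named by rule or belong to a list. Each value here is the log2 fold change (aged over young) in RPE/choroid minus that in retina. For interferon-induced genes it was -4.37 for Mx1, -4.00 for Oas1a, -3.67 for Rsad2, -3.40 for Gbp2, -3.17 for Ifi47 and -2.41 for Oasl2. For the complement protease C1s it was -2.62. Ccnd2 gave -2.57 and Plvap -2.38, both higher with age in retina and lower in RPE/choroid. Gpnmb, a glycoprotein of pigment cells and macrophages, gave -3.18, Cp, the ferroxidase ceruloplasmin, -1.82, and Nqo1, a quinone reductase, -1.75. Nhsl1 gave -3.31, with the larger change in RPE/choroid. All 13 kept their direction in the 16 other settings tried. They were picked at that threshold from the same libraries, so the kept direction is no separate support. The adjusted p under 0.05 held in 13 of the 16 settings for Rsad2 and 12 for Ccnd2, and in 2 to 6 for the other 11, Nhsl1 in 3.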

How the results depend on the processing

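Counts of DEGs moved with the processing. The 115 higher DEGs became 217 without a filter, 943 with the rod gene score as covariate and 232 in the 4 rod-rich libraries, and 107 to 211 as single libraries were left out. The 102 lower DEGs became 45 with all 3 groups in one fit, 240 with the rod gene score and 177 in the rod-rich libraries, and 97 to 203 with single libraries left out. Among the fits that left out 1 library, the largest counts came without aged library 2, and leaving out aged library 3 (177 higher) or aged library 1 (174 lower) also moved a count by over 1.5 times. Genes at an adjusted p under 0.05 numbered 0 in the fits of edgeR except for 1 gene, Nhsl1, with the rod gene score, and 34 in DESeq2. The 27 genes of the comparison between tissues became 4 with RLE size factors, 314 in DESeq2 and 0 to 49 with single libraries left out. The causes of these moves were not tested. Among 1134 values of 72 named genes under other settings none changed direction, 235 lost the call and 23 gained it. The kept direction was largely fixed in advance, since most of these genes were picked for their difference between the same libraries. Of 944 list medians 32 moved by more than the spread between libraries.

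With the replicate number as a block there were 89 higher and 69 lower DEGs, and 0 genes in the comparison between tissues. Deviations of libraries with the same number correlated at 0.269, -0.553 and -0.624, so not every pair deviated together and the pairing is by number only, and no library correlated best with its own number. Depth limits genes near the floor of 3 counts.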
